A study of Mus musculus with 18 samples.

Results

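The hypoxia-inducible factors (HIFs) and the enzymes that sense oxygen for them are encoded by 9 genes described here: Hif1a, Epas1 and Hif3a for the alpha subunits, Arnt for the beta subunit, Egln1, Egln2 and Egln3 for the prolyl hydroxylases, Vhl for the ubiquitin ligase subunit and Hif1an for the asparaginyl hydroxylase. They were chosen by name from the 52636 genes of the deposited count table, and each name matched 1 row. RNA-seq was performed on epidermal cells that the study sorted as EpCAM-positive and negative for CD45, CD140a and CD31. The cells came from mock-treated back skin (mock), from skin next to papillomas after 7,12-dimethylbenz[a]anthracene (DMBA, a mutagen) and 12-O-tetradecanoylphorbol-13-acetate (TPA, a phorbol ester that promotes tumor growth) (treated), and from the papillomas themselves (tumors). At each stage, Zfp36 fl/fl mice, which carry loxP-flanked Zfp36 alleles and no Cre, were set beside littermates labelled Zfp36 ΔK14, in which Cre driven by the human keratin 14 promoter deletes Zfp36 in keratin 14-expressing cells and their progeny. All mice were adults on a C57BL/6 background, and both genotypes carry the floxed alleles. Zfp36 encodes tristetraprolin (TTP), which binds AU-rich elements (AREs) in mRNAs and promotes their decay. The labels name the treated cells treated tumoral keratinocytes, whereas the protocol calls that skin adjacent to the tumors.

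In cells with enough oxygen, the prolyl hydroxylases use it to hydroxylate HIF alpha subunits, and the VHL ubiquitin ligase then marks the hydroxylated protein for destruction. When oxygen falls, the alpha subunits persist, pair with ARNT and bind short DNA motifs beside genes for glucose uptake, glycolysis and vessel growth. Egln3 and Egln1 are themselves HIF targets, which closes a feedback loop, and the asparaginyl hydroxylase FIH, encoded by Hif1an, blocks the binding of coactivators. Because much of this control acts on protein, mRNA levels measure how much template for each part is present and not HIF activity.

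The 18 columns of the table came from 6 groups of 3, but Mock ΔK14 replicates 2 and 3 held the same count for all 52636 genes and were counted as 1 library, so 17 libraries were used, with n = 2 in Mock ΔK14. Nothing in the labels says that replicates came from separate mice, and p-values then measure only the spread between these libraries. Total counts ran from 2808550 to 9617985 per library, the lowest in Tumor fl/fl replicate 1, which also held the fewest genes with a count (19219). Levels are given as CPM, counts per 1000000 counts after scaling by trimmed mean of M-values (TMM). Zfp36 itself was 151 to 713 CPM in mock, 255 to 503 CPM in treated and 176 to 241 CPM in tumor fl/fl libraries, and 10.05 to 38.4 CPM in the 8 ΔK14 libraries. The summed CPM of 8 keratinocyte markers ran from 3799.97 to 32049, with low sums in replicate 1 of both mock groups (3840 in fl/fl and 3799.97 in ΔK14) and the highest sum in Tumor fl/fl replicate 1. Leukocyte markers (8 genes) summed to between 6.74 and 25.9 CPM in every library, and endothelial markers (7 genes) to between 10.96 and 41.1 CPM. Of the endothelial markers, Kdr, Tek and Emcn were each below 2 CPM in every library. Fibroblast markers (6 genes) summed to 375 to 1671 CPM in mock and treated skin and to 30.3 to 385 CPM in tumors. Melanocyte markers (4 genes) were also lower in tumors, 8.82 to 28.8 CPM beside 34.8 to 246 CPM in mock and treated skin. Hair follicle markers (6 genes) summed to 114 to 1076 CPM in mock skin, to 619 to 862 CPM in treated and 364 to 694 CPM in tumor fl/fl libraries, and to 381 to 627 CPM in treated and 268 to 327 CPM in tumor ΔK14 libraries. The part of these cell types in the differences between stages was not tested. Fewer cells of a type and less RNA per cell cannot be told apart in such bulk libraries.

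Sequence features were searched in each gene: AREs in the 3′ untranslated region (UTR), the sites TTP binds, and HIF-binding cores in the promoter. Their part in the differences below was not tested. In the longest annotated 3′ UTR of each gene (GENCODE vM21), the heptamer TATTTAT occurred 3 times in Hif1a (1827 bases), once each in Egln3 (1643 bases), Vhl (2064 bases) and Arnt (1847 bases), and not in the other 5 genes. The longer TTATTTATT occurred 2 times in Hif1a and once each in Egln3 and Vhl. Of 21039 genes with an annotated 3′ UTR (median 960 bases), 27.6% held the heptamer, 10.4% held 2 or more and 7.66% held the nonamer, and of 3126 genes whose UTR length was close to that of Hif1a (median 1822.5 bases), 38.7%, 13.3% and 10.1% did. The sites of Hif1a, Egln3 and Vhl, the genes with a nonamer, are printed with the heptamer in capitals, named by the heptamer's first base in the UTR, and the last 2 of Hif1a overlap.
Hif1a 3′ UTR base 111: gctcagcagtcTATTTATattttctatatc
Hif1a 3′ UTR base 313: atgcaccttttTATTTATttatttttggtg
Hif1a 3′ UTR base 317: acctttttattTATTTATttttggtgaggg
Egln3 3′ UTR base 1467: tgtcatgtcctTATTTATtttgtttattgt
Vhl 3′ UTR base 1131: gtataatttttTATTTATttttaatcccct

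The HIF-binding core was searched as ACGTG or GCGTG on either strand in the 250 bases before each RefSeq start (GRCm38.p6), and overlapping matches were joined. RefSeq windows were matched for 8 of the 9 genes, all but Epas1. Hif1a held 2 cores, Egln3 1, Egln1 2, Hif3a 2 and Arnt 1, the windows of Egln2 held 4 and 1, and those of Vhl and Hif1an none. A core was present in 38.6% of 32851 windows and 2 or more in 13.4%. The promoters of Hif1a and Egln3 are printed because these genes had the largest stage differences, with the cores in capitals.
Hif1a, chr12:73907617-73907866, plus strand: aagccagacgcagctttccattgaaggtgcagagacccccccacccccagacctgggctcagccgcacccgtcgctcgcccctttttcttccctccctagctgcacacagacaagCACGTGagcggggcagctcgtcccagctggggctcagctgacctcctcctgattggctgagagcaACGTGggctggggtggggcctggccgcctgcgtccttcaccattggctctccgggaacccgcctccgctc
Egln3, chr12:54203875-54204124, minus strand: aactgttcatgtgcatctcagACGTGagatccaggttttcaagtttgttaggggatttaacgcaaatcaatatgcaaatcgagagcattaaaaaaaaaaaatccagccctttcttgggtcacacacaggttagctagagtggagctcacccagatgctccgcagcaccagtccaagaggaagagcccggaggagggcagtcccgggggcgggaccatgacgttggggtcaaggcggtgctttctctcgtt
The cores of Hif1a began 135 and 70 bases before the RefSeq start, and that of Egln3 began 229 bases before its own. The Hif1a window lies inside the gene as annotated in GENCODE vM21, which begins at base 73901375. The bases before that first annotated start were not searched. A match of letters is a description and not a bound site.

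Hif1a and Epas1, the genes for HIF-1α and HIF-2α, were higher in tumors than in treated skin of both genotypes. Egln3 was higher in ΔK14 tumors than in ΔK14 treated skin. No difference of Arnt, Egln2, Vhl or Hif1an passed the test in any of 12 comparisons. Passing means a Benjamini-Hochberg adjusted p under 0.05 over all tested genes in edgeR's quasi-likelihood test, as for every adjusted p below. Hif3a held 0 to 5 counts per library (at most 0.541 CPM) and was not tested.

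**Figure D1:**
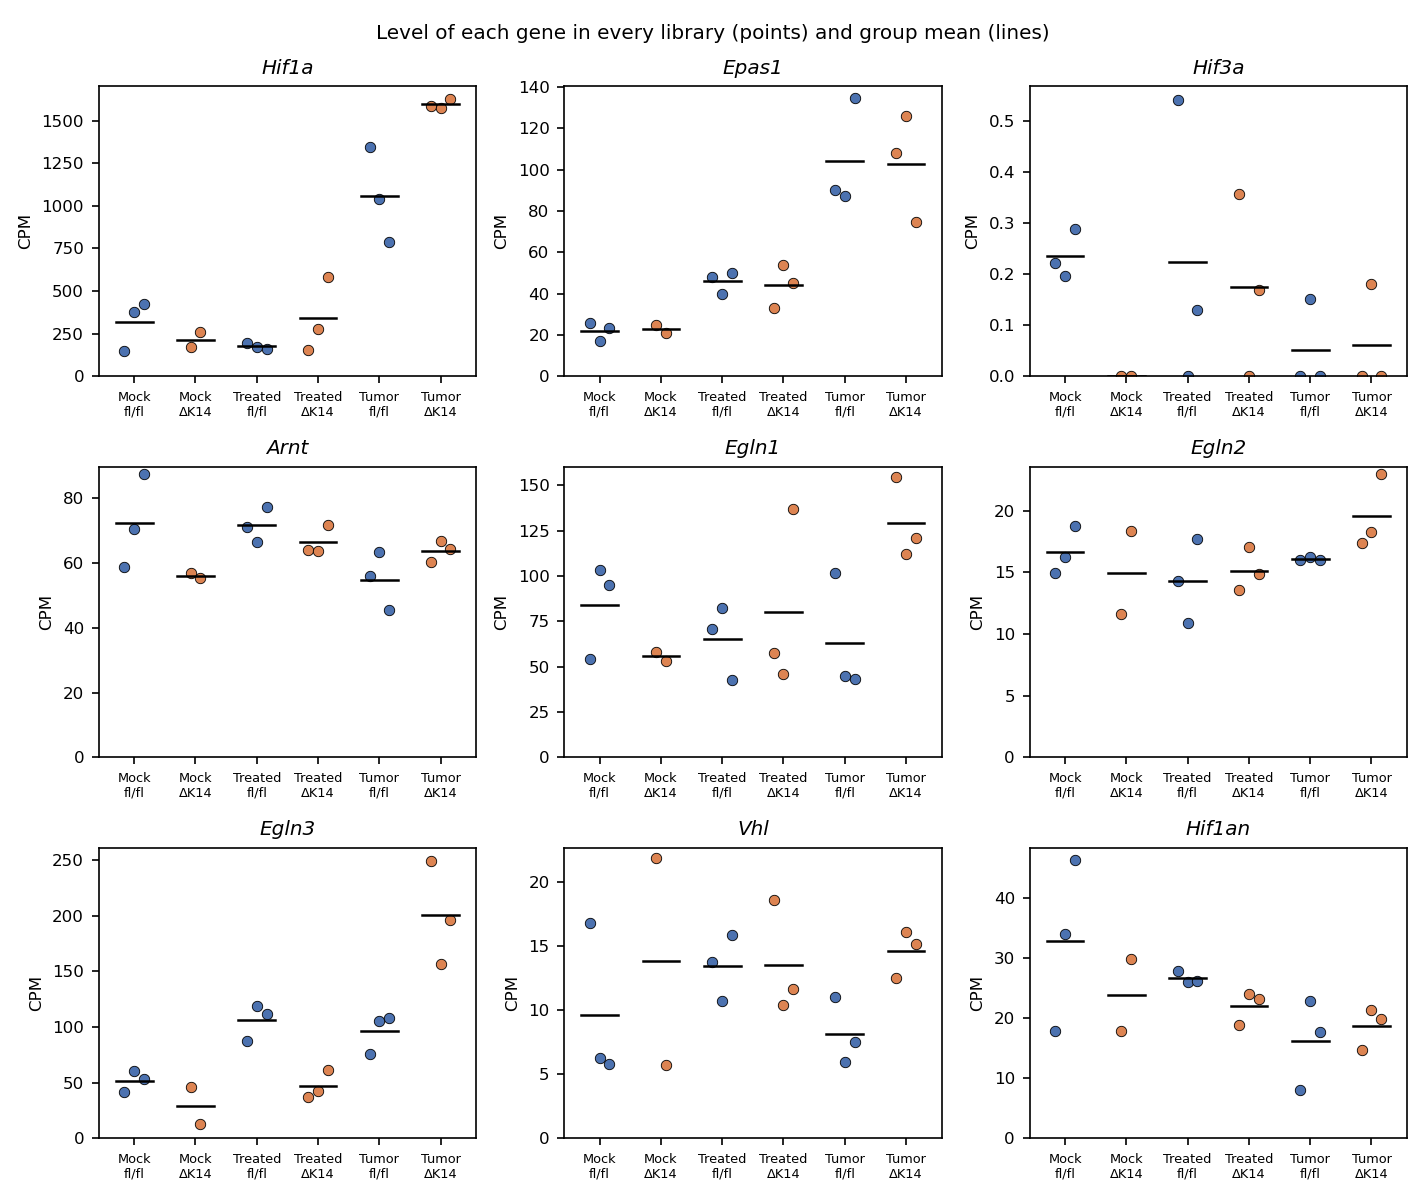
Level of the 9 genes in each of the 17 libraries, in CPM on linear axes that start at 0; points are libraries (blue Zfp36 fl/fl, orange Zfp36 ΔK14) and lines are group means. Hif1a lies between 151 and 585 CPM in the skin libraries and between 789.9 and 1629 CPM in the tumor libraries, and Egln3 is lower in ΔK14 than in fl/fl treated skin and higher in ΔK14 than in fl/fl tumors.

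Hif1a (ENSMUSG00000021109, chromosome 12, 73901375 to 73947530, plus strand, GRCm38) was 193, 172 and 159 CPM in the Treated fl/fl libraries and 1347, 1038 and 789.9 CPM in the Tumor fl/fl libraries. In ΔK14 it was 155, 280.2 and 585 CPM in treated skin and 1587, 1573 and 1629 CPM in tumors. Every tumor library was above every treated library, and the spread was 29.4 CPM in ΔK14 tumors and 221 CPM in ΔK14 treated skin (SD, n = 3 each). From treated skin to tumors Hif1a rose by 2.56 log2 in fl/fl (SE 0.24, edgeR adjusted p = 0.00121) and by 2.15 log2 in ΔK14 (SE 0.41, edgeR adjusted p = 0.00508). Both calls held when any single library was left out (edgeR adjusted p at most 0.0124 and 0.0256).

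In mock skin Hif1a was 151, 379 and 425 CPM in fl/fl and 172 and 259 CPM in ΔK14, below every tumor library. It rose from mock skin to tumors by 2.797 log2 in ΔK14 (SE 0.31, edgeR adjusted p = 0.00709), and the difference of 1.70 log2 in fl/fl (SE 0.42) did not pass (edgeR adjusted p = 0.0638). That fl/fl value passed without Mock fl/fl replicate 1 (1.38 log2, edgeR adjusted p = 0.0176) and in DESeq2 (adjusted p = 0.0056), and the ΔK14 call was lost without Tumor ΔK14 replicate 2 (edgeR adjusted p = 0.0575). Keratinocyte marker sums also varied among the skin libraries. In mock fl/fl, replicate 1 held 151 CPM of Hif1a beside a marker sum of 3840 CPM, and replicates 2 and 3 held 379 and 425 CPM beside sums of 23077 and 20313 CPM. In treated ΔK14, Hif1a was 155, 280.2 and 585 CPM beside sums of 4982, 8261 and 21127 CPM. Hif1a and the sum did not have the same order in treated fl/fl, where 193, 172 and 159 CPM of Hif1a stood beside sums of 8932, 14070 and 5699 CPM. The part of this in the differences was not tested.

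Other annotated genes, 2 in number, share exonic bases with Hif1a. The row named AC124712.1 (Gm49321 in GENCODE vM21, same strand) shares 148 bases and the antisense gene Gm15283 shares 330 bases, and their levels were the closest of 18251 genes to that of Hif1a, with root mean square differences of 0.12 and 0.19 log2 over the 17 libraries after each gene was centred. The closest gene that does not overlap it was Stom, which encodes the membrane protein stomatin (0.39 log2). Whether strand was used in counting is not given in the sources used here, so reads of these genes and of Hif1a cannot be told apart. With their counts added to Hif1a, the tumor minus treated differences were 2.52 log2 in fl/fl and 2.14 log2 in ΔK14.

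Epas1 (ENSMUSG00000024140, chromosome 17, 86753700 to 86833410, plus strand) followed the order mock, treated, tumor in both genotypes without overlap between stages. It was 25.5, 17.02 and 23.1 CPM in mock fl/fl, 47.9, 39.99 and 49.9 CPM in treated fl/fl, and 90.2, 87.2 and 135 CPM in tumor fl/fl libraries. In ΔK14 it was 24.8 and 20.8 CPM in mock skin, 33.1, 53.7 and 45.3 CPM in treated skin, and 108, 126 and 74.7 CPM in tumors. From treated skin to tumors Epas1 rose by 1.15 log2 in fl/fl (SE 0.24, edgeR adjusted p = 0.0140) and by 1.12 log2 in ΔK14 (SE 0.26, edgeR adjusted p = 0.0117). Between mock skin and tumors it rose by 2.21 log2 in fl/fl (SE 0.32, edgeR adjusted p = 0.0184) and by 2.07 log2 in ΔK14 (SE 0.33, edgeR adjusted p = 0.0156). The step from mock to treated skin was 1.08 log2 in fl/fl (SE 0.22, edgeR adjusted p = 0.412) and 0.94 log2 in ΔK14 (SE 0.31, edgeR adjusted p = 0.907) and did not pass, although every treated library was above every mock library of its genotype. In fl/fl the treated-to-tumor call was lost without Treated fl/fl replicate 1 or 2 (edgeR adjusted p = 0.0668 and 0.0617), and the mock-to-tumor call without Mock fl/fl replicate 2 or 3 or Tumor fl/fl replicate 2 or 3 (edgeR adjusted p = 0.100, 0.0784, 0.0631 and 0.0797). In ΔK14 the mock-to-tumor call was lost without Tumor ΔK14 replicate 1 or 2 (edgeR adjusted p = 0.0619 and 0.0743). With total counts in place of TMM scaling the treated-to-tumor difference did not pass in fl/fl or ΔK14 (edgeR adjusted p = 0.0980 and 0.0673). Epas1 is best known from endothelium, and the summed endothelial markers (7 genes) were 17.6 to 41.0 CPM in mock skin, 10.96 to 24.9 CPM in treated skin and 21.0 to 41.1 CPM in tumors. Their part in the Epas1 differences was not tested. The genes closest to Epas1 were Duoxa1, a maturation factor of the dual oxidase DUOX1 (0.29 log2), Serinc2 (0.34 log2) and Sox9, a transcription factor gene (0.36 log2), by the same measure over 17 libraries. Sox9 is also 1 of the 6 hair follicle markers summed above.

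Egln3 (ENSMUSG00000035105, chromosome 12, 54178981 to 54203860, minus strand) encodes PHD3, the prolyl hydroxylase most strongly induced by hypoxia in many cells. In treated skin it was 87.5, 119 and 112 CPM in fl/fl and 37.4, 42.7 and 61.2 CPM in ΔK14. In tumors the order was the other way round, with 75.6, 106 and 108 CPM in fl/fl and 248.8, 156 and 196 CPM in ΔK14. In mock skin it was 41.7, 60.8 and 53.0 CPM in fl/fl and 45.9 and 12.6 CPM in ΔK14. From treated skin to tumors Egln3 rose by 2.00 log2 in ΔK14 (SE 0.25, edgeR adjusted p = 0.00103), a call that held without any single library (edgeR adjusted p at most 0.00838), and in fl/fl it differed by -0.16 log2 (SE 0.21, edgeR adjusted p = 0.610). Between mock skin and tumors it rose by 2.67 log2 in ΔK14 (SE 0.58, edgeR adjusted p = 0.0312), a call that was lost without any 1 of the 3 ΔK14 tumor libraries (edgeR adjusted p from 0.0956 to 0.0988). The fl/fl libraries overlapped between treated skin and tumors, and every fl/fl treated and tumor library was above every fl/fl mock library.

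Between genotypes, Egln3 was lower in ΔK14 treated skin by 1.19 log2 units (log2 fold change -1.19, SE 0.22) without overlap of the groups, and its unadjusted p of 0.000517 by edgeR's quasi-likelihood test ranked 15 among 16232 genes, but the adjusted p was 0.559. The same difference passed in DESeq2 (adjusted p = 0.00459) and in edgeR's exact test (adjusted p = 0.00339). In tumors the difference was 0.91 log2 in the other direction (SE 0.25, edgeR adjusted p = 0.228), also without overlap, and it passed in DESeq2 (adjusted p = 0.0464) and without Tumor fl/fl replicate 1 (0.80 log2, edgeR adjusted p = 0.0295). The difference of these differences, the interaction of genotype and stage, was 2.17 log2 (SE 0.34). Its edgeR adjusted p of 0.0683 missed the threshold, at rank 6 of 17017 genes by unadjusted p (2.53e-05), whereas it passed in DESeq2 (adjusted p = 8.11e-06) and without Tumor fl/fl replicate 1 (edgeR adjusted p = 0.00418). The genes closest to Egln3 over the 17 libraries were AU018091, Unc5a, a netrin receptor gene, and Gm26649, at 0.49 to 0.57 log2.

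Egln1 (ENSMUSG00000031987, chromosome 8, 124908587 to 124949324, minus strand) encodes PHD2, the main oxygen sensor for HIF-1α in most cells. It was 54.1, 103 and 94.7 CPM in mock fl/fl, 58.3 and 53.2 CPM in mock ΔK14, 70.9, 82.2 and 42.6 CPM in treated fl/fl, and 57.4, 45.7 and 137 CPM in treated ΔK14 libraries. In tumors it was 102, 44.9 and 43.1 CPM in fl/fl and 154, 112 and 121 CPM in ΔK14. The ΔK14 tumors were above every fl/fl tumor, and 1 fl/fl tumor and 1 ΔK14 treated library stood well above the rest of their groups. Egln1 rose from mock skin to tumors in ΔK14 by 1.12 log2 (SE 0.27, edgeR adjusted p = 0.0409), a call that was lost without any 1 of the 3 tumor libraries (edgeR adjusted p from 0.0997 to 0.150). The high fl/fl tumor library, replicate 1, had a keratinocyte marker sum of 32049 CPM beside 9353 and 10744 CPM in the other 2, and the high ΔK14 treated library, replicate 3, had 21127 CPM beside 4982 and 8261 CPM. In mock ΔK14 the order was the other way round, with 58.3 CPM of Egln1 beside a sum of 3799.97 CPM and 53.2 CPM beside 23156 CPM. The part of the marker levels in the Egln1 values was not tested. The genes closest to Egln1 were Higd1a (0.30 log2), which encodes a hypoxia-inducible mitochondrial protein, Snai2 (0.31 log2), a transcription factor gene, and Wbp1l (0.32 log2).

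Arnt, the partner of every HIF alpha subunit, lay between 45.4 and 87.6 CPM over the 17 libraries, with group means from 54.9 CPM (Tumor fl/fl, SD 9.01, n = 3) to 72.3 CPM (Mock fl/fl, SD 14.4, n = 3). Its level was lower in every Tumor fl/fl library than in every Treated fl/fl library (-0.42 log2, SE 0.19, edgeR adjusted p = 0.134), a difference that passed with total counts in place of TMM (-0.89 log2, edgeR adjusted p = 0.0278). Egln2, which encodes PHD1, lay between 10.9 and 22.9 CPM, and shares 11 exonic bases with Cyp2t4 on the other strand. Hif1an lay between 8.01 and 46.5 CPM and was lower in fl/fl tumors (8.01, 22.8 and 17.6 CPM) than in treated fl/fl skin (27.8, 26.0 and 26.3 CPM), by 0.71 log2 units (log2 fold change -0.71, SE 0.34, edgeR adjusted p = 0.154). Vhl lay between 5.75 and 21.8 CPM, from 16 to 152 counts per library. Its lowest mock values, 6.26 and 5.78 CPM in fl/fl replicates 2 and 3 and 5.75 CPM in ΔK14 replicate 2, were those of the libraries with high keratinocyte markers, and replicate 1 was at 16.8 CPM (fl/fl) and at 21.8 CPM (ΔK14).

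**Figure D2:**
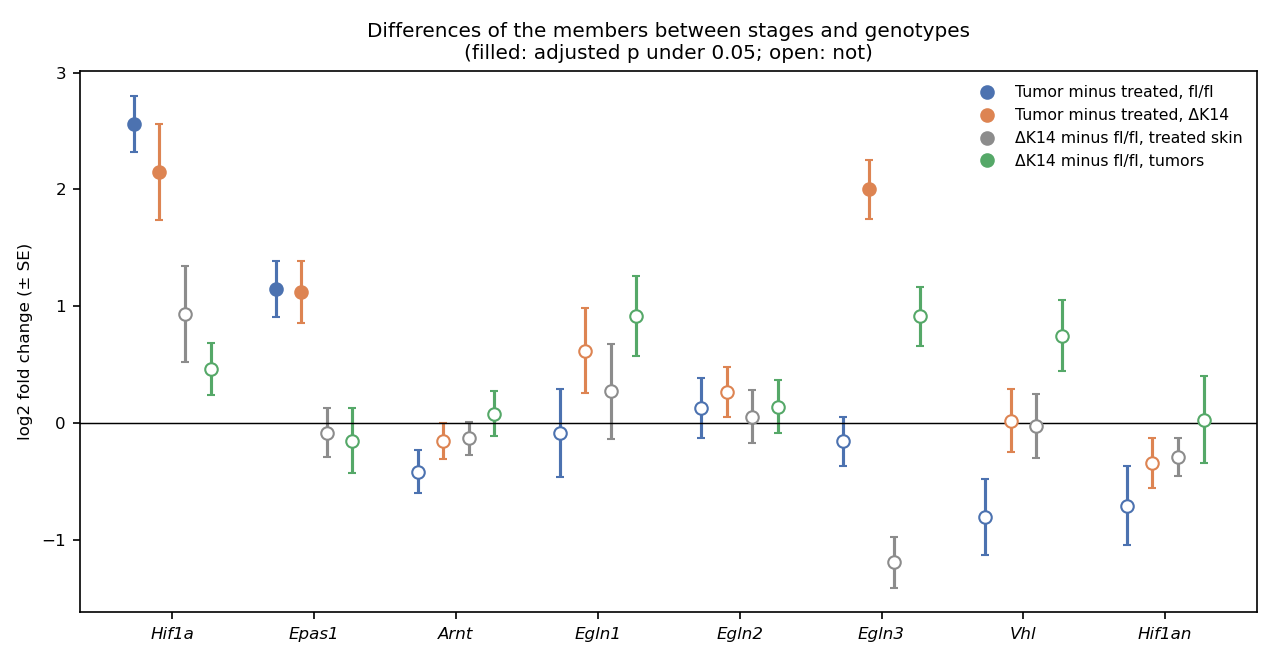
Log2 fold changes with standard errors (bars) of the 8 tested genes in 4 comparisons from edgeR's quasi-likelihood fits; filled points passed at an adjusted p under 0.05. Filled points are seen for Hif1a and Epas1 between tumors and treated skin in both genotypes and for Egln3 in ΔK14 (2.00), and the 2 Egln3 points between genotypes lie on opposite sides of 0 (-1.19 and 0.91).

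Counted over the family, 2 of 8 tested genes (Hif1a and Epas1) rose from treated skin to tumors in fl/fl, where 12.5% of 15362 tested genes passed with a higher level, and 3 of 8 (Hif1a, Epas1 and Egln3) rose in ΔK14, where 17.6% of 15289 did. From mock skin to tumors 1 of 8 rose in fl/fl (Epas1), beside 2.22% of 15394 genes, and 4 of 8 in ΔK14 (Hif1a, Epas1, Egln1 and Egln3), beside 7.13% of 15027. None fell in these 4 comparisons, in which 12.6%, 19.2%, 1.88% and 7.27% of the tested genes, in the same order, passed with a lower level. Leaving out each library in turn, the treated-to-tumor counts ran from 1 to 3 in fl/fl and from 3 to 4 in ΔK14, and the mock-to-tumor counts from 0 to 2 and from 0 to 5. The shares above belong to the fits of all libraries. In fl/fl the treated-to-tumor calls over all genes, 3847 with all libraries, ran from 1120 to 6513 in those fits. For the other comparisons such calls are not given here. The comparisons of the 2 genotypes share no library, and those within a genotype share their tumor libraries.

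No gene of the family passed between genotypes at any stage in edgeR's quasi-likelihood test. In tumors 4 genes of 14067 passed in all (0.0284%), and 3 family genes had an unadjusted p under 0.05 (Egln1, Egln3 and Vhl), beside 14% of all tested genes. DESeq2 called 1 (Egln3) and edgeR's exact test 0. Without Tumor fl/fl replicate 1, the shallowest library, 4 passed: Egln1 (1.44 log2, edgeR adjusted p = 0.00138), Hif1a (0.70 log2, 0.0204), Vhl (1.03 log2, 0.0281) and Egln3 (0.80 log2, 0.0295). In that fit 3568 of 15463 tested genes passed in all. In treated skin, where 0.00616% of 16232 genes passed, 1 family gene (Egln3) had an unadjusted p under 0.05, beside 5.55% of genes, and DESeq2 and edgeR's exact test each called it. In mock skin, where 0% of 15920 genes passed, 0 had one, beside 1.59%, and DESeq2 and the exact test called 0. From mock to treated skin 0 passed in either genotype by the quasi-likelihood test, as for all tested genes. There 2 had an unadjusted p under 0.05 in fl/fl (Epas1 and Egln3), beside 5.5% of genes, and 1 in ΔK14 (Epas1), beside 4.8%, and DESeq2 called 1 (Egln3, in fl/fl) and the exact test 0. Without Mock fl/fl replicate 1, 4 passed in fl/fl (Hif1a, Epas1, Egln3 and Vhl), in different directions. Epas1 (1.22 log2), Egln3 (0.93 log2) and Vhl were higher in treated skin. Hif1a was lower there, at 159 to 193 CPM beside 379 and 425 CPM in the remaining mock libraries. The share of all genes that passed in that fit is not given here, so the count has no background beside it.

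In tumors the libraries of the 2 genotypes did not overlap for 5 of the 8 tested genes, all higher in ΔK14, beside 13.7% of all tested genes higher without overlap. These were Egln1 (0.92 log2, SE 0.34, edgeR adjusted p = 0.302), Egln3, Vhl (0.75 log2, SE 0.31, edgeR adjusted p = 0.333), Hif1a (0.46 log2, SE 0.22, edgeR adjusted p = 0.394) and Egln2 (0.14 log2, SE 0.23, edgeR adjusted p = 0.821). The Vhl levels behind this were 11.02, 5.93 and 7.51 CPM in fl/fl and 12.5, 16.1 and 15.2 CPM in ΔK14, and those of Egln2 were 16.0, 16.3 and 16.0 CPM and 17.4, 18.3 and 22.9 CPM. Epas1 (-0.15 log2), Arnt (0.08 log2) and Hif1an (0.03 log2) overlapped. Besides the interaction of Egln3 between tumors and treated skin, the interactions of genotype and stage with an unadjusted p under 0.05 were those of Egln1 (1.56 log2, SE 0.56) and Egln3 (1.81 log2, SE 0.61) between tumors and mock skin, both at an edgeR adjusted p of 0.558. The shares of all tested genes under that unadjusted threshold were 13.2% between tumors and treated skin, 8.18% between tumors and mock skin and 1.45% between treated and mock skin, where 0 family genes were under it.

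Levels of different genes are compared here only as CPM per kilobase of exons, summed over the alpha genes or over the prolyl hydroxylase genes. Hif1a made up 78.2 ± 2.72% of the summed alpha level in Treated fl/fl (SD, n = 3) and 93.6 ± 1.62% in Tumor ΔK14 (n = 3), with the other 4 groups between these means, and Epas1 made up most of the rest (21.7 ± 2.72% and 6.37 ± 1.61%). Of the prolyl hydroxylase level, Egln3 made up 63.1 ± 6.44% in Treated fl/fl and 40.3 ± 5.70% in Treated ΔK14 (n = 3 each), without overlap. In tumors the Egln3 share was 61.2 ± 13.6% in fl/fl and 63.4 ± 2.34% in ΔK14 (n = 3 each). In mock skin it was 40.3 ± 2.96% in fl/fl (n = 3), and 18.1% and 45.8% in the 2 ΔK14 libraries. The Egln1 share was 28.6 ± 7.82% in Treated fl/fl and 46.6 ± 10.4% in Treated ΔK14, and 29.1 ± 14.02% and 30.5 ± 1.64% in the tumors (n = 3 each). No test was run on these shares, which describe composition only.

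**Figure D3:**
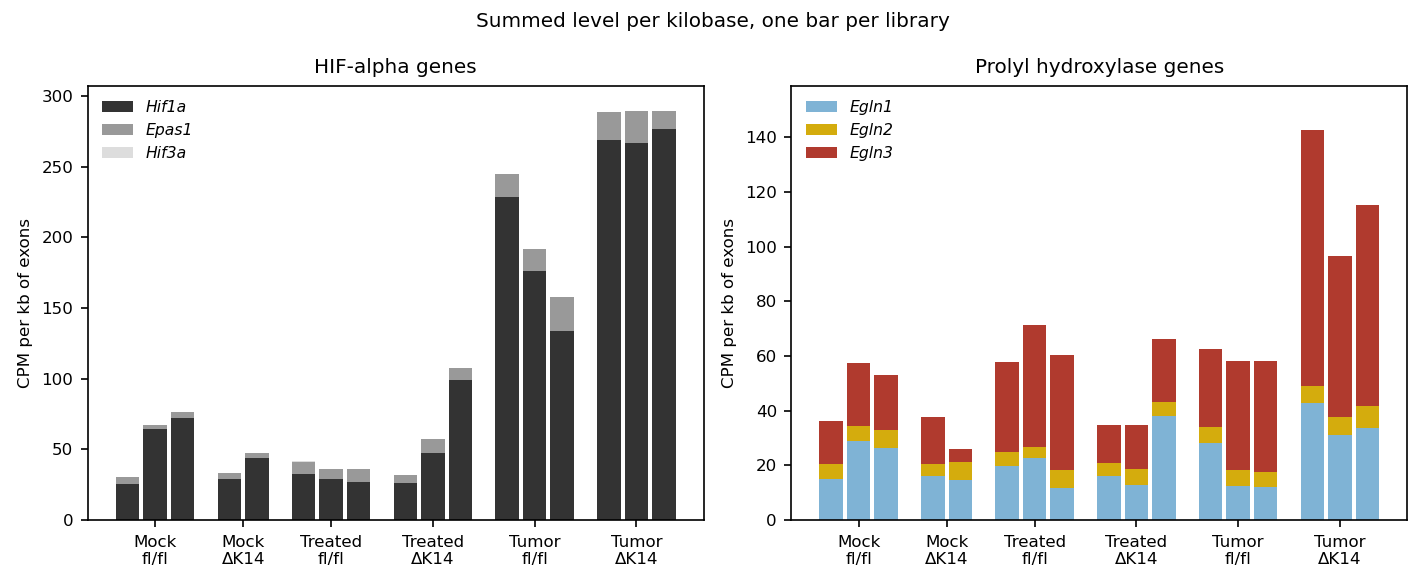
Summed level of the HIF-alpha genes (left) and the prolyl hydroxylase genes (right) in CPM per kilobase of exons, one stacked bar per library. Hif1a fills most of the left bars in every group, and Egln3 fills a larger part of the right bars in Treated fl/fl (63.1%) than in Treated ΔK14 (40.3%).

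The balance of substrate and enzyme templates was taken as a ratio, which was higher in tumors than in treated skin of both genotypes. No test was run on it or on the ratio of Hif1a to Arnt. The ratio of summed alpha to summed prolyl hydroxylase level was 0.608 ± 0.105 in Treated fl/fl, 3.31 ± 0.604 in Tumor fl/fl, 1.39 ± 0.407 in Treated ΔK14 and 2.51 ± 0.489 in Tumor ΔK14 (SD, n = 3 each), without overlap between treated skin and tumors. In mock skin it was 1.15 ± 0.301 in fl/fl (n = 3) and 0.892 and 1.83 in the ΔK14 libraries. The ratio of Hif1a to Arnt per kilobase was 3.34 ± 0.472 in Treated fl/fl, 26.2 ± 5.62 in Tumor fl/fl, 6.77 ± 3.95 in Treated ΔK14 and 34.0 ± 1.92 in Tumor ΔK14 (n = 3 each). This ratio too was higher in every tumor library than in every treated library of its genotype.

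HIF target genes were examined as a list of 20, among them Vegfa (vascular endothelial growth factor A), Slc2a1 (glucose transporter GLUT1), Hk2 (hexokinase 2), Pfkfb3 (a driver of glycolysis), Pgk1 and Ndrg1. The list was chosen with earlier results of these data known, so its counts and medians are a description. From treated skin to tumors 19 of 20 rose in ΔK14 and 10 of 20 in fl/fl, beside 17.6% and 12.5% of all tested genes, and none fell. The median was 2.41 log2 in ΔK14 and 1.13 log2 in fl/fl, beside -0.03 and -0.02 log2 over all tested genes. The smallest p-values in ΔK14 were those of Pfkfb3 (3.62 log2, SE 0.22), Ero1l (3.25 log2, SE 0.22), Hk2 (2.41 log2, SE 0.19) and Vegfa (3.45 log2, SE 0.27), with edgeR adjusted p of 0.000165 to 0.000179. In fl/fl they were those of Hk2 (2.20 log2, SE 0.18), Ero1l (1.56 log2, SE 0.20), Vegfa (1.97 log2, SE 0.27) and Ndrg1 (2.30 log2, SE 0.31), with edgeR adjusted p of 0.00116 to 0.00342. From mock skin to tumors 16 of 20 rose in ΔK14 and 6 of 20 in fl/fl, beside 7.13% and 2.22% of all tested genes. Without Tumor ΔK14 replicate 1, 2 or 3 the first count was 10, 5 and 7, and without Mock fl/fl replicate 2 or 3 or Tumor fl/fl replicate 2 or 3 the second was 0, 0, 0 and 1. The all-gene calls of these fits are not given here, so these counts have no background beside them.

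Between the genotypes of the tumors, 1 of the 20 targets passed. Ero1l, which encodes an oxidase of the endoplasmic reticulum, was 114, 87.3 and 90.8 CPM in fl/fl and 372, 345 and 448 CPM in ΔK14 tumors, a difference of 1.86 log2 (SE 0.20, edgeR adjusted p = 0.0415). The list had a median of 1.21 log2 beside -0.02 log2 over all tested genes, 15 of 20 had an unadjusted p under 0.05, beside 14% of all tested genes, and 14 were higher in ΔK14 without overlap, beside 13.7%. Only Car9, carbonic anhydrase IX, had a lower mean in ΔK14 tumors (-1.49 log2, edgeR adjusted p = 0.331). The count depended on the libraries and the test: it was 18 without Tumor fl/fl replicate 1, 0 without any 1 of the other 5 tumor libraries, 8 in DESeq2 and 7 in edgeR's exact test. The calls over all genes moved too, from 4 with all libraries to 3568 without Tumor fl/fl replicate 1. They were at most 7 without any 1 of the other 5, 480 in DESeq2 and 396 in the exact test. In treated skin 0 of 20 passed (edgeR's quasi-likelihood test; 2 with an unadjusted p under 0.05, and 0 in DESeq2 and the exact test), with a median of 0.29 log2. Pfkfb3 had the only passing interaction between tumors and treated skin, where 0.0118% of 17017 genes passed, 2.59 log2 (SE 0.35, edgeR adjusted p = 0.0476), from 12.9, 16.2 and 13.4 CPM in treated and 44.1, 23.6 and 23.5 CPM in tumor fl/fl libraries, and 9.65, 12.3 and 13.8 CPM in treated and 179, 153 and 141 CPM in tumor ΔK14 libraries. That call was lost without any 1 library other than Tumor fl/fl replicate 1, under RLE (relative log expression) scaling and in a single fit of all libraries. It was also lost with the replicate number as a block (edgeR adjusted p = 0.157).

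**Figure D4:**
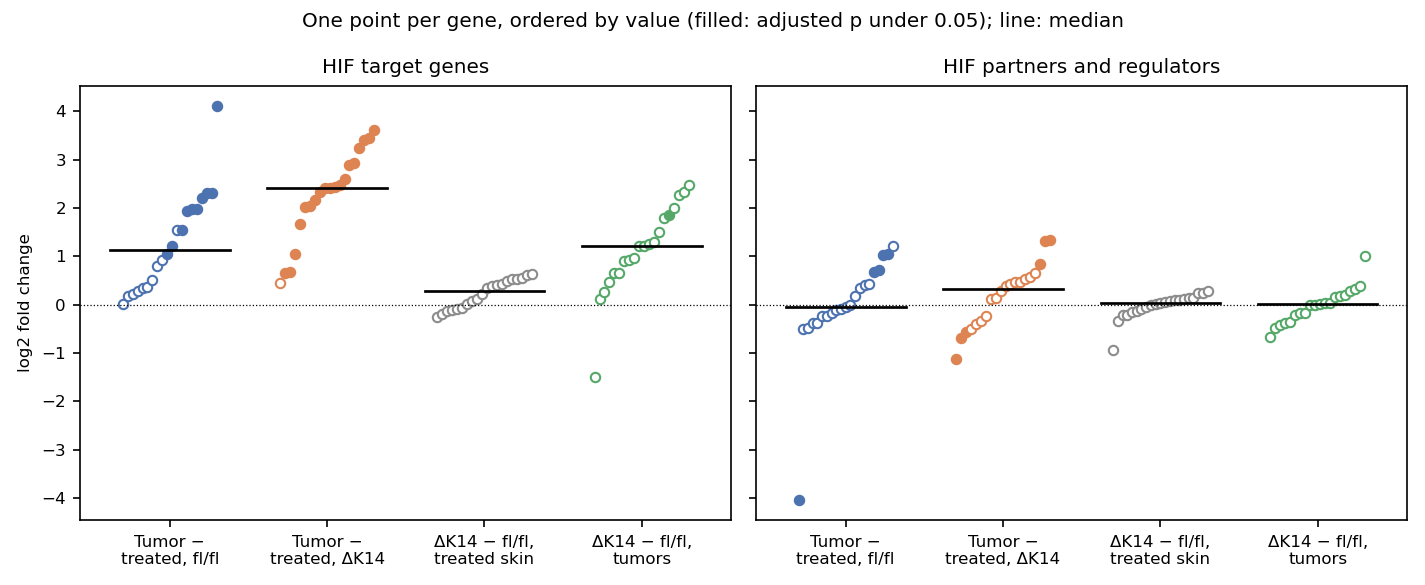
Log2 fold changes of the 20 HIF target genes (left) and of the tested genes among 23 HIF partners and regulators (right) in 4 comparisons; points are genes, filled where the edgeR adjusted p was under 0.05, and lines are medians. The target medians are 1.13 and 2.41 between tumors and treated skin of fl/fl and ΔK14 and 1.21 between tumors of the 2 genotypes, and the partner medians lie between -0.05 and 0.33.

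Partners and regulators of HIF formed a list of 23, also chosen with earlier results of these data known. From treated skin to tumors 4 of 21 tested genes rose and 1 fell in fl/fl (median -0.05 log2), and 3 of 20 rose and 3 fell in ΔK14 (median 0.33 log2). Of all tested genes, 12.5% rose and 12.6% fell in fl/fl and 17.6% rose and 19.2% fell in ΔK14. When replicate 1, 2 or 3 of the treated libraries was left out, the 5 calls in fl/fl became 1, 1 and 2 and the 6 calls in ΔK14 became 9, 3 and 9. When replicate 1, 2 or 3 of the tumors was left out, they became 7, 3 and 2 in fl/fl and 4, 3 and 2 in ΔK14. Over all genes, the 3847 calls in fl/fl became 1120, 1538 and 1625 without those treated libraries and 6513, 3156 and 1864 without those tumors. The all-gene calls of the ΔK14 fits are not given here, so these ΔK14 counts have no background beside them. The chaperone genes Hsp90aa1 and Hsp90ab1, whose products bind HIF-1α, rose in both genotypes, by 1.04 and 1.02 log2 in fl/fl (edgeR adjusted p = 0.00899 and 0.0224) and by 1.34 and 1.31 log2 in ΔK14 (edgeR adjusted p = 0.00337 and 0.00226). The ΔK14 calls held when any single library was left out. In fl/fl that of Hsp90aa1 was lost without Treated fl/fl replicate 1 or 2 (edgeR adjusted p = 0.0550 and 0.0507), and that of Hsp90ab1 without any 1 treated library or Tumor fl/fl replicate 3 (edgeR adjusted p from 0.0519 to 0.0898). Gnb2l1, which encodes the scaffold RACK1, rose in fl/fl by 0.71 log2 (edgeR adjusted p = 0.0319), a call that was lost without any 1 library other than Tumor fl/fl replicate 1 (edgeR adjusted p from 0.0546 to 0.146). Cited4, which encodes a coactivator-binding protein of the CITED family, fell in fl/fl by 4.04 log2 units (log2 fold change -4.04, SE 0.74, edgeR adjusted p = 0.00899) from 4.003, 4.59 and 5.47 CPM in treated skin to 1.002, 0.152 and 0 CPM in tumors, which are 0 to 2 counts, so the fitted value depends on the prior count. In ΔK14 the deubiquitinase gene Usp20 and the thiol dioxygenase gene Ado, another oxygen-dependent enzyme, fell (log2 fold change -1.12 and -0.69, edgeR adjusted p = 0.0158 and 0.0170). The Usp20 call was lost without Treated ΔK14 replicate 2 or Tumor ΔK14 replicate 1 or 3 (edgeR adjusted p from 0.0524 to 0.0757), and the Ado call without Treated ΔK14 replicate 2 or Tumor ΔK14 replicate 2 or 3 (edgeR adjusted p from 0.0555 to 0.0794). Between the genotypes of the tumors 0 of 20 tested partners passed in edgeR's quasi-likelihood test (1 with an unadjusted p under 0.05, and 1 each in DESeq2 and the exact test).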

How the data were processed

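RNA-seq counts of 18 libraries of sorted mouse epidermal cells were used. The deposited table holds whole-number counts per gene (raw, not normalized), which the authors made from reads aligned to mm10; the submitters' processing notes name Trimmomatic 0.36, STAR 2.5.3, HTSeq 0.9.1 and DESeq2, and strand use and removal of duplicates are not given in the sources used here. PCR duplicates, if kept, would make counts look more precise than they are. No unique molecular identifiers were counted.

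Each comparison was fitted on its own groups with edgeR 4.0.16 (R 4.3.3; glmQLFit and glmQLFTest, two-sided): genes were kept by filterByExpr (minimum count 10), libraries were scaled by TMM, and p-values were adjusted by Benjamini and Hochberg over all tested genes, with a threshold of 0.05. There were 9 pairwise comparisons and 3 interactions of genotype and stage. CPM used TMM-scaled library sizes over the 17 libraries. SE is the absolute log2 fold change divided by the square root of F. Likeness of genes was the root mean square difference of centred log2 CPM (prior count 2). Per-kilobase levels used the union of GENCODE vM21 exons, and DESeq2 1.42.0, edgeR's exact test and other settings were alternatives. The test was checked on simulated counts with the same dispersion for every gene and with large changes only. That check does not cover small changes or libraries of unequal spread, and its outcome is not given here.

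All 9 genes were reported by rule. Those that passed, and those without overlap between the tumors of the 2 genotypes, were given by library, and at most 4 genes per list and comparison were named by smallest p. Car9 was named after its values were seen. The 9 genes and all lists were chosen with earlier results of these data known. Replicate numbers were not taken to pair libraries, since no comparison with 3 pairs had every correlation of same-numbered deviations above 0.1.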

Additional observations from a re-analysis of the deposited data

Results flagged for a closer look

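The interaction of genotype and stage for Egln3 between tumors and treated skin (2.17 log2, SE 0.34) was singled out because every ΔK14 library was below every fl/fl library in treated skin and above every fl/fl library in tumors. The test of this difference, in edgeR's quasi-likelihood fit, gave an adjusted p of 0.0683. Its adjusted p lay between 9.67e-08 and 0.295 over 19 alternatives in edgeR or DESeq2, of which 3 passed. Between genotypes, ΔK14 minus fl/fl was -1.19 log2 in treated skin and 0.91 log2 in tumors. Keratinocyte marker sums were 5699 to 14070 CPM in fl/fl and 4982 to 21127 CPM in ΔK14 treated skin, and 9353 to 32049 CPM and 25886 to 26244 CPM in the tumors. The part of these markers in the Egln3 difference was not tested.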

How the results depend on the processing

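Of the 571 comparisons of a family gene's value with an alternative, 525 kept their direction and their side of the threshold, and 383 values of named targets and partners gave 319 that did. Many family values came from results that had not passed, and these counted as kept when they again did not pass. The alternative that added a fold limit of 2 reused the main fit, so it could give no new call. Of the family values 20 lost a call, 22 gained one and 4 changed direction, and of the others 64 lost a call. The counts of family genes that passed moved by over 1.5 times as follows, and the cause was not tested. Between genotypes in tumors (0 in edgeR's quasi-likelihood test) DESeq2 gave 1 and no low-count filter 2. In treated skin (0) DESeq2 and the exact test gave 1 each and no filter 2. Between tumor and mock fl/fl (1) the count was 2 in DESeq2, in the exact test, with no filter and when all libraries were fitted together. Between treated and mock fl/fl (0) DESeq2 gave 1, and for the interaction of tumors and treated skin (0) DESeq2 and no filter gave 1 each. Leaving out each library in turn, the counts ran from 0 to 4 between genotypes in tumors, 0 to 1 for that interaction, 1 to 3 between tumor and treated fl/fl, 0 to 2 between tumor and mock fl/fl, 0 to 5 between tumor and mock ΔK14 and 0 to 4 between treated and mock fl/fl. Over all genes, DESeq2 called 480 between genotypes in tumors where edgeR called 4, and 2542 between tumor and mock fl/fl where edgeR called 632. Without Tumor fl/fl replicate 1, edgeR called 3568 genes between genotypes in tumors and 6513 between tumor and treated fl/fl, where it called 3847 with all libraries. Without Treated fl/fl replicate 1 it called 1120 between tumor and treated fl/fl. Such calls with a library left out are not given for the comparisons with mock skin or for the interaction.

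With the replicate number as a block, the count between genotypes in mock skin went from 0 to 1 (Egln3), the Egln1 rise between mock and tumor ΔK14 was lost (edgeR adjusted p = 0.126; it was also lost at 0.0922 when all libraries were fitted together and at 0.0781 with total counts), and the Egln3 interaction had an adjusted p of 0.157. Over all genes the block moved the mock calls from 0 to 132. The correlations of same-numbered deviations in mock skin were 0.78 and 0.57, but only 2 pairs exist there, and nothing in the labels ties the numbers to a shared animal or day, so they were not taken as pairs.

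Total counts in place of TMM, and counts of overlapping genes added to Hif1a, were chosen after the data were seen. Total counts moved the all-gene median by -0.47 log2 between tumor and treated fl/fl and by -0.44 log2 in ΔK14, and the share of calls that were higher from 49.8% to 14.9% and from 47.8% to 19.9%. Under them Egln2 turned to -0.19 log2 between tumor and treated ΔK14 and Arnt to -0.15 log2 between tumor and mock ΔK14, neither of which passed in either scaling. Under them also the Epas1 rises from treated skin to tumors were lost (edgeR adjusted p = 0.0980 in fl/fl and 0.0673 in ΔK14), and Arnt passed between tumor and treated fl/fl (-0.89 log2, edgeR adjusted p = 0.0278). The Hif1a interaction of tumors and treated skin ran from -0.74 to 0.22 log2 and the Egln3 interaction of treated and mock skin from -1.03 to 0.85 log2 when each library was left out, positive without Treated ΔK14 replicate 3 and Mock ΔK14 replicate 1.

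Lengths of the longest transcripts gave Hif1a and Epas1 shares of 81.5% and 18.4% in Treated fl/fl. With no division by length the Egln3 share was 34.4% in Mock fl/fl, 34.6% in Treated ΔK14 and 57.1% in Tumor ΔK14, and that of Egln1 was 54.3% in Mock fl/fl and 37.1% in Tumor ΔK14. Depth was low for Hif3a (0 to 5 counts per library), and Vhl and Hif1an each went down to 16 counts.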
